A study of Rattus norvegicus with 20 samples.

Results

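The transcripts of untreated cultured rat islets were described from the 5 arrays whose titles say untreated, of 20 arrays in the series. Each array held RNA of 1 sample of primary islets, and genes were ranked by the mean log2 intensity of their brightest probe set. The islets came from male Wistar rats aged 8 weeks and were kept in RPMI medium with 10% fetal bovine serum and 8 mM glucose; no virus was added to these samples, and the collection time of 48 h in the labels is counted from virus addition. The other 15 arrays held islets given adenovirus for GFP, Nr4a1 or Nr4a3, and no contrast with them was made. How many animals gave a sample, and whether islets were pooled, is not stated in the labels, so each SD measures the spread between these 5 samples (n = 5 throughout). Arrays are numbered by the replicate number in their titles.

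Pancreatic islets are clusters of hormone-secreting cells scattered through the exocrine pancreas. Beta cells secrete insulin and amylin, alpha cells glucagon, delta cells somatostatin and PP cells pancreatic polypeptide. Each hormone is made as a precursor, folded in the endoplasmic reticulum and cut by convertases in dense-core granules. Beta cells release insulin when glucose metabolism closes potassium channels and lets calcium in. Isolated islets carry along vessels, stroma, resident macrophages, duct cells and fragments of acinar tissue.

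The marker genes of the endocrine cells were at or near the top of the ranking. Ins1 and Ins2, the rat insulin genes, ranked 1 and 3 of 14218 genes, and Gcg, the glucagon gene, ranked 2. Iapp, which encodes amylin, ranked 6, Ppy, pancreatic polypeptide, ranked 8, and Sst, somatostatin, ranked 120. All 6 endocrine markers thus lay in the top 1% of genes. The Y-linked genes Eif2s3y and Uty had means of 9.50 ± 0.32 and 9.04 ± 0.36 log2 units in these islets of male rats, while Xist, the RNA of the inactive X chromosome, had a mean of 4.47 ± 0.14. The dimmer probe set of Uty had a mean of 5.33. These probe set intensities rank signal and not transcript number, since every probe set has its own affinity: of 4526 genes with more than 1 probe set, 1214 (26.8%) had a gap above 3 log2 units between their brightest and dimmest.

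The sequences upstream of the hormone genes are shown because 5 of the 6 endocrine markers held TATAA at nearly the same distance from the start. They run 5′ to 3′ on the gene's strand in the RefSeq annotation of build GRCr8, from 250 bases before the annotated transcription start for both insulin genes and from 100 bases before it for the other hormones, up to base 20 of the transcript. Capitals mark 4 motifs: TATAA on the gene's own strand, CATCTG on either strand (an E-box, read as CAGATG on the other strand), and the palindromes TAATTA (a homeodomain core) and TGACGTCA (a cyclic AMP response element). Ins1 lies at chr1:261185869-261186138 on the plus strand and Ins2 at chr1:207273786-207274055 on the minus strand.
Ins1: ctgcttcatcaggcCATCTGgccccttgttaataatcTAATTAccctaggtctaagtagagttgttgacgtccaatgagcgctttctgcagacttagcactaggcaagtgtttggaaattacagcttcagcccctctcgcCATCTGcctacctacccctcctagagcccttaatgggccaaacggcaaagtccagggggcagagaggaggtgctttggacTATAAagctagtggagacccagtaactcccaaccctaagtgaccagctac
Ins2: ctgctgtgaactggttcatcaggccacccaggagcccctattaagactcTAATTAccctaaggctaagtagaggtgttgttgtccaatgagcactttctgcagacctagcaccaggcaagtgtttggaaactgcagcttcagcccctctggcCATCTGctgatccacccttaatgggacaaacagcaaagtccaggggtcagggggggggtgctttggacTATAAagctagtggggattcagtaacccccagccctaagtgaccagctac
Gcg lies at chr3:67531514-67531633 on the minus strand, Iapp at chr4:176967997-176968116 on the plus strand, Ppy at chr10:87556217-87556336 on the minus strand and Sst at chr11:90461446-90461565 on the plus strand.
Gcg: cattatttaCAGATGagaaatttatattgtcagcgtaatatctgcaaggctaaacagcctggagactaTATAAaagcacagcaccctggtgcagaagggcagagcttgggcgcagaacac
Iapp: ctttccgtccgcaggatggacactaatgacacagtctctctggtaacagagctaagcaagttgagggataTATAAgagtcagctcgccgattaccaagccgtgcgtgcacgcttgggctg
Ppy: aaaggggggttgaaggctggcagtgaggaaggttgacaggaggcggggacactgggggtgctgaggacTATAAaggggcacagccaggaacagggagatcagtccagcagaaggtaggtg
Sst: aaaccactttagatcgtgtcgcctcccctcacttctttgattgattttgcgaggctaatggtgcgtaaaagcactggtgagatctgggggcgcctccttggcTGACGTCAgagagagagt

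TATAA began 30 bases before the start in Ins1, Ins2 and Iapp and 32 bases before it in Gcg and Ppy, and the Sst window held TGACGTCA from base 3 of the annotated transcript. Over windows of 250 bases before to 50 bases after the start, TATAA began between 40 and 20 bases before it in 8 of 20 genes of the whole hormone list (40%) and in 5 of the 7 of these in the brightest 1% of genes. It did so in 12 of 83 genes (14.5%) among the brightest 100, in 78 of 1148 genes (6.79%) of the dimmest 10% and in 331 of 11701 genes (2.83%) in all. It did so in 12 of 25 acinar cell genes (48%) and in 0 of 14 granin and prohormone processing genes. Ins1, Ins2, Gcg, Iapp and Ppy, the markers that drew attention to the motif, were counted again among the hormones and the brightest genes. Those shares are therefore no independent support. CATCTG was found in 11.9% of all 11701 promoters, TAATTA in 2.47%, TGACGTCA in 2.85% and TATAA at any place in 11.6%. Among the brightest 100 these shares were 10.8%, 2.41%, 3.61% and 22.9%, and TATAA at any place was as frequent in the dimmest 10%, at 23.6%. The promoters of Ins1 and Ins2 were identical at 80.1% of 312 aligned columns, against 42.3% to 49.3% for the 14 other pairs of these 6 hormone genes. A match of letters is a description and does not show that a factor binds there.

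Arrays 4 and 5 stood apart from arrays 1, 2 and 3 in their control probe sets. All 24 probe sets for the Bacillus subtilis spike RNAs were dimmer on both, and all 18 for the Escherichia coli and phage P1 spikes were brighter. The 5′ probe set of the DapX spike read 9.40, 8.98, 9.07, 6.30 and 5.93 log2 units on arrays 1 to 5. Low DapX values were also found on 2 of the 15 other arrays (5.82 and 5.71), while the remaining 13 lay between 7.97 and 9.09. Pearson correlations between pairs of the 5 arrays across all probe sets were 0.982 to 0.991. From arrays 1 to 3 alone, 99 of the brightest 100 genes were kept, 10540 genes lay above the level used as a mark for the dim end and the acinar list had a median of 8.22. From arrays 4 and 5 alone, 94 of the brightest 100 were kept, and these values were 10638 and 8.58.

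Array signal was spread over many genes. The mean log2 intensity of a gene ran from 3.18 to 14.98 with a median of 7.80, and 10% of genes lay above 10.40. As a mark for the dim end, the 95th percentile of 31 olfactory and vomeronasal receptor genes was taken. This receptor level was 6.14 log2 units, and 10587 genes (74.5%) lay above it by their brightest probe set. The level was the same with the mean or the dimmest probe set of each gene, but 10030 and 8712 genes then lay above it. The brightest gene alone gave 0.369% ± 0.0192 of the summed linear intensity of all genes, the brightest 10 gave 2.73% ± 0.106 and the brightest 100 gave 14.2% ± 0.257. The brightest 1422 genes, the top 10%, gave 55.9% ± 0.611. These are shares of array signal and not of transcripts, and they may be understated for genes at the top of the range of the arrays. They also count only probe sets that name 1 gene, which holds for 58 of the brightest 100 probe sets.

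**Figure D1:**
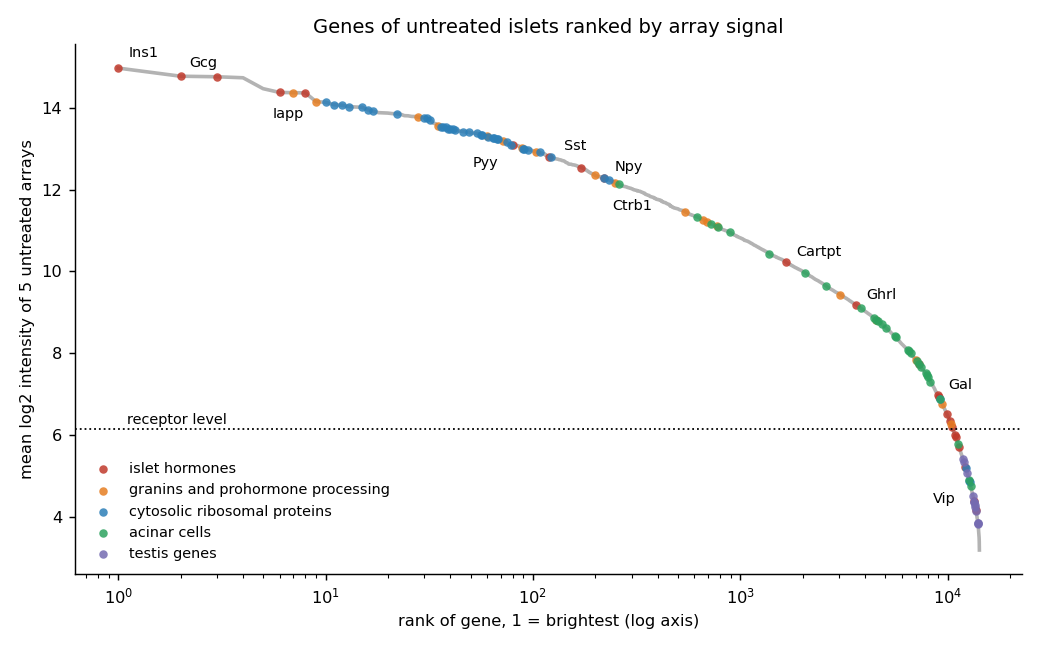
Mean log2 intensity over 5 untreated arrays (vertical axis) against the rank of the gene (horizontal log axis) for 14218 genes, with 5 gene lists coloured and the receptor level of 6.14 dotted. Hormones sit at both ends of the curve, cytosolic ribosomal protein genes crowd the first 100 ranks, and acinar cell genes are spread from Ctrb1 at rank 260 downward.

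The insulin signals, ranked 1 and 3, lay at the top of the range of the arrays, where a difference between samples may be understated. Ins1 read 14.91, 14.96, 14.96, 14.98 and 15.06 log2 units on arrays 1 to 5, and Ins2 read 14.79, 14.70, 14.72, 14.80 and 14.80. Both had an SD of 0.05, and Ins1 ranked first on every array. Gcg, the alpha cell hormone, read 14.79, 14.62, 14.84, 14.77 and 14.85, and its values overlapped those of Ins2. No order between Gcg and Ins2 therefore holds beyond their spread, and Gcg lay at the same top of the range.

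Amylin and pancreatic polypeptide came next among the hormones. Iapp, co-secreted with insulin, read 14.39, 14.51, 14.20, 14.48 and 14.33. Ppy read 14.28, 14.05, 14.52, 14.55 and 14.46, with array 2 lowest and the means of Ppy and Iapp (14.37 and 14.38) apart by less than either SD. Pyy, which encodes peptide YY, a relative of pancreatic polypeptide, read 13.00, 12.71, 13.45, 12.98 and 13.30, again lowest on array 2.

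Sst, the delta cell hormone that restrains its neighbours' secretion, read 12.95, 12.16, 13.00, 13.00 and 12.91 log2 units, so that array 2 lay below 4 arrays that were close to each other. Cartpt, a neuropeptide gene known from islet endocrine cells, read 10.60, 9.76, 10.22, 10.33 and 10.28, and array 2 was the lowest there too. Gcg and Ins2, given above, were also lowest on array 2. In bulk samples, fewer cells of a type and less RNA per cell cannot be told apart. Trh, thyrotropin-releasing hormone, known to be made by beta cells, had a mean of 12.54 ± 0.37 with its low value of 11.93 on array 3. Npy, neuropeptide Y, had a mean of 12.29 ± 0.18 and ranked 219.

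The remaining hormone and neuropeptide genes were dimmer. Ghrl, the ghrelin gene of epsilon cells, had a mean of 9.18 ± 0.23 and ranked 3605, and Penk, proenkephalin, had a mean of 7.72 ± 0.15. Gal, the galanin gene, read 6.62, 7.71, 6.37, 7.88 and 6.33, an SD of 0.75 with arrays 2 and 4 high. The 23 hormone genes measured had a median of 7.72, beside 7.80 for all genes; 17 lay above the receptor level, 9 were in the top 10% and 7 in the top 1%. The 6 below the receptor level were Nmu (5.99), Tac1 (5.95), Sct (5.69), Gip (5.22), Adcyap1 (4.37) and Vip (4.15), genes of gut endocrine cells and nerves.

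**Figure D2:**
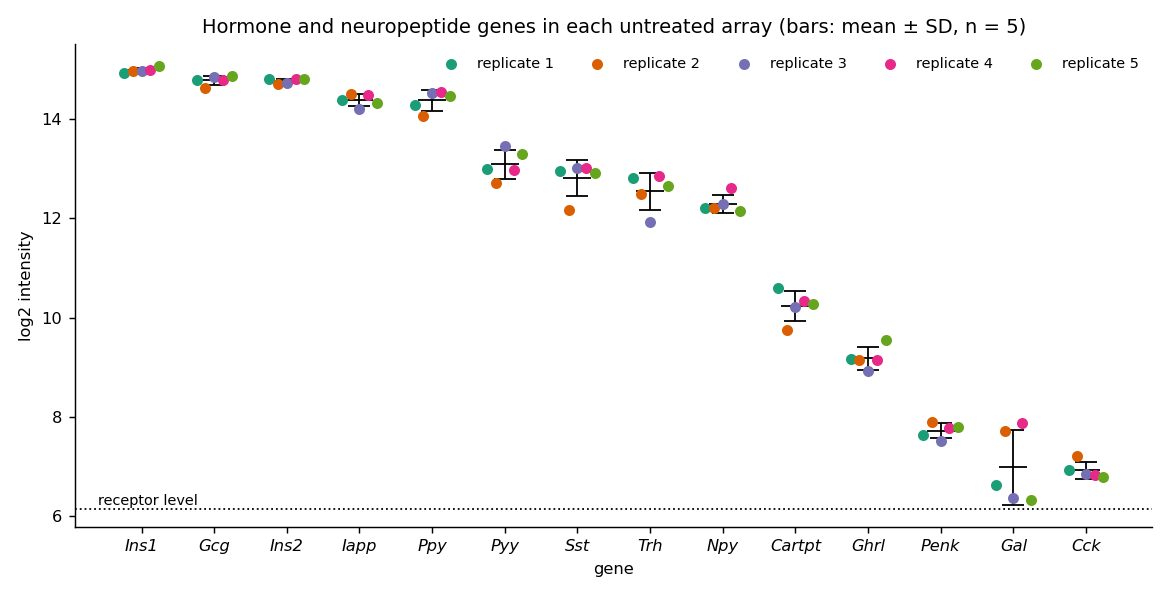
Log2 intensity (vertical axis) of the 14 brightest hormone and neuropeptide genes on each of 5 untreated arrays, with bars for the mean ± SD and the receptor level dotted. Ins1, Gcg and Ins2 lie close together on all arrays. Array 2 is lowest for Gcg, Ins2, Ppy, Pyy, Sst and Cartpt, and Gal splits with arrays 2 and 4 high.

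The machinery that turns prohormones into secreted peptides was bright as a group. The 19 measured genes for granins and prohormone processing had a median of 12.17 log2 units, against 7.80 for all genes, and 14 of them were in the top 10%. Cpe, carboxypeptidase E, which trims the basic residues left by the convertases, read 14.45, 14.26, 14.43, 14.39 and 14.34 and ranked 7. Resp18, a granule protein of neuroendocrine cells, had a mean of 14.15 ± 0.12 and ranked 9. The granins Scg2 and Chgb, which help build the dense core, had means of 13.78 ± 0.10 and 13.01 ± 0.11, and Scg5, the chaperone of the convertase Pcsk2, had a mean of 13.55 ± 0.11. Pcsk2 itself, needed for glucagon and insulin processing, had a mean of 13.20 ± 0.13.

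Chga, chromogranin A, was dimmer and more variable, at 11.61, 10.68, 11.30, 11.32 and 11.44 log2 units, with array 2 lowest. Vgf, another granin, went the other way, at 8.25, 9.61, 8.42, 9.12 and 8.65, with array 2 highest. Qpct, glutaminyl-peptide cyclotransferase, was the dimmest gene of the list at 6.27 ± 0.17. Docking and fusion genes were of middling signal: the 22 measured exocytosis genes had a median of 9.50, and 5 were in the top 10%. Snap25, a SNARE of the plasma membrane, led them with a mean of 11.38 ± 0.23, before Vamp8, a SNARE of vesicles, at 11.21 ± 0.30. Sytl4, granuphilin, which docks insulin granules, read 8.51, 8.30, 8.12, 7.40 and 6.65, with both arrays that stood apart in the controls at the bottom; the part of that array difference in the result was not tested.

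The route from glucose to calcium was represented by Slc2a2, the glucose transporter GLUT2, which had the brightest signal of its list. It read 13.74 on array 1 and 13.19 to 13.30 on the other 4, a mean of 13.33 ± 0.24 at rank 59. The subunits of the ATP-sensitive potassium channel, Kcnj11 and Abcc8, had means of 11.31 ± 0.08 and 10.51 ± 0.13. The calcium pumps of the endoplasmic reticulum, Atp2a3 and Atp2a2, had means of 12.30 ± 0.15 and 12.09 ± 0.19 by their brightest probe sets. The other probe set of Atp2a3 had a mean of 8.78, and the others of Atp2a2 ran from 5.87 to 11.13. All 20 measured genes of glucose sensing and ion channels lay above the receptor level, 7 in the top 10%.

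Among receptors, Prlr, the prolactin receptor through which islets grow in pregnancy, had the brightest signal, 11.51 ± 0.20, by 1 of its 3 probe sets (the others had means of 8.36 and 6.87), followed by the incretin receptor Glp1r at 10.93 ± 0.28 and Igf1r, the receptor of insulin-like growth factor 1, at 10.63 ± 0.21. Gipr, the other incretin receptor, had a mean of 9.30 ± 0.10, Gcgr, the glucagon receptor, 8.07 ± 0.17, and Lepr, the leptin receptor, was dimmest at 5.10 ± 0.15. Of 19 measured receptors, 3 were in the top 10%, which holds 10% of all genes by definition.

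Transcription factors of endocrine cells covered a wide range of signal. Neurod1, a factor needed for insulin transcription, read 13.51, 13.60, 13.51, 13.30 and 13.15 and ranked 47. Mafa, a beta cell factor that binds the insulin promoter, read 12.56, 11.56, 11.86, 12.13 and 11.89, so that array 1 was 2.00-fold above array 2. Pax6 had a mean of 11.86 ± 0.14, Foxa2 11.17 ± 0.06, Nkx6-1 10.56 ± 0.20 and Pdx1 10.02 ± 0.14. At the other end, Foxa1, a close relative of Foxa2, had a mean of 4.45 ± 0.11. The list of 23 measured factors had a median of 8.84, with 17 above the receptor level and 6 in the top 10%.

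Genes for making protein filled much of the top. Of the brightest 100 genes, 34 were ribosomal protein genes (of 57 measured by symbol), 7 belonged to granins and processing, 6 were hormones, 6 belonged to the secretory pathway and 3 were translation factors; 32 were on none of the lists. Rps23 read 14.06, 14.26, 14.12, 14.15 and 14.11 and Rps29 had a mean of 14.08 ± 0.09. The 41 listed cytosolic ribosomal proteins had a median of 13.38 and 35 were in the top 1%. A few were dim (Rpl39 at 6.88, Rpl28 at 5.19, Rpl30 at 4.88 and Rps13 at 4.84), each measured by 1 probe set. These 4 stood below every other gene of the list, and the part of the probe sets in their values was not tested.

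The list for the secretory pathway and folding in the endoplasmic reticulum held the largest share of top 10% genes of the 32 lists. All of its 41 genes lay above the receptor level and 39 were in the top 10%, with a median of 12.04. Hspa5, the chaperone BiP, read 13.83, 13.85, 14.00, 13.96 and 13.67 and ranked 21. Hsp90b1 and Pdia3, a chaperone and a disulfide isomerase that act on folding proinsulin and other clients, had means of 13.39 ± 0.14 and 13.38 ± 0.12, and P4hb, a further disulfide isomerase, 13.07 ± 0.12. Dnajb11, a co-chaperone of BiP, was the dimmest of the list and still had a mean of 10.07 ± 0.16.

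Respiration was bright and steady across arrays. The 34 measured genes of oxidative phosphorylation had a median of 11.71 and a median SD of 0.110, and 27 were in the top 10%. COX2, a mitochondrially encoded subunit of cytochrome c oxidase, ranked 5 with a mean of 14.47 ± 0.10. COX1, also mitochondrially encoded, ranked 25 but read 14.07, 13.43, 14.36, 13.92 and 13.26, a range of 2.14-fold. Cox7b, Atp5pb, Ndufa1 and Ndufa4, nuclear subunits of complex IV, ATP synthase and complex I or IV, lay between 12.93 and 13.04.

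The 28 measured genes of the tricarboxylic acid cycle and its feeding reactions had a median of 10.53. Mdh1, cytosolic malate dehydrogenase of the malate-aspartate shuttle, had a mean of 13.25 ± 0.08, and the succinate dehydrogenase subunits Sdhc, Sdhb and Sdhd had means of 11.82, 11.49 and 11.40. Glycolytic genes had a median of 10.97 over 15 genes, led by Aldoa, aldolase A, at 13.61 ± 0.11. Gpd1, cytosolic glycerol 3-phosphate dehydrogenase, was the dimmest of them at 6.78 ± 0.08.

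Genes called disallowed, because beta cells keep them low so that secretion follows glucose, had a median of 7.56 over 17 genes, against 7.80 for all genes, and 3 were in the top 10%. Hk2, a low-Km hexokinase, had a mean of 4.58 ± 0.16 and Rest, a repressor of neuroendocrine genes, 4.72 ± 0.07, both below the receptor level. Slc16a1, the lactate and pyruvate carrier MCT1, had a mean of 7.25 ± 0.27 with array 2 highest at 7.71. Ldha, lactate dehydrogenase A, was far brighter and varied, at 11.08, 10.96, 9.48, 10.00 and 11.02. Arrays 3 and 4 were low, and so they were for Vim, a mesenchymal filament, at 12.81, 12.59, 11.80, 11.74 and 12.63. The mean of all 25 stellate cell and fibroblast genes, 24 of them above the receptor level, was 10.19, 10.04, 9.70, 9.54 and 10.34 on arrays 1 to 5; the part of stromal cells in the Ldha values was not tested.

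**Figure D3:**
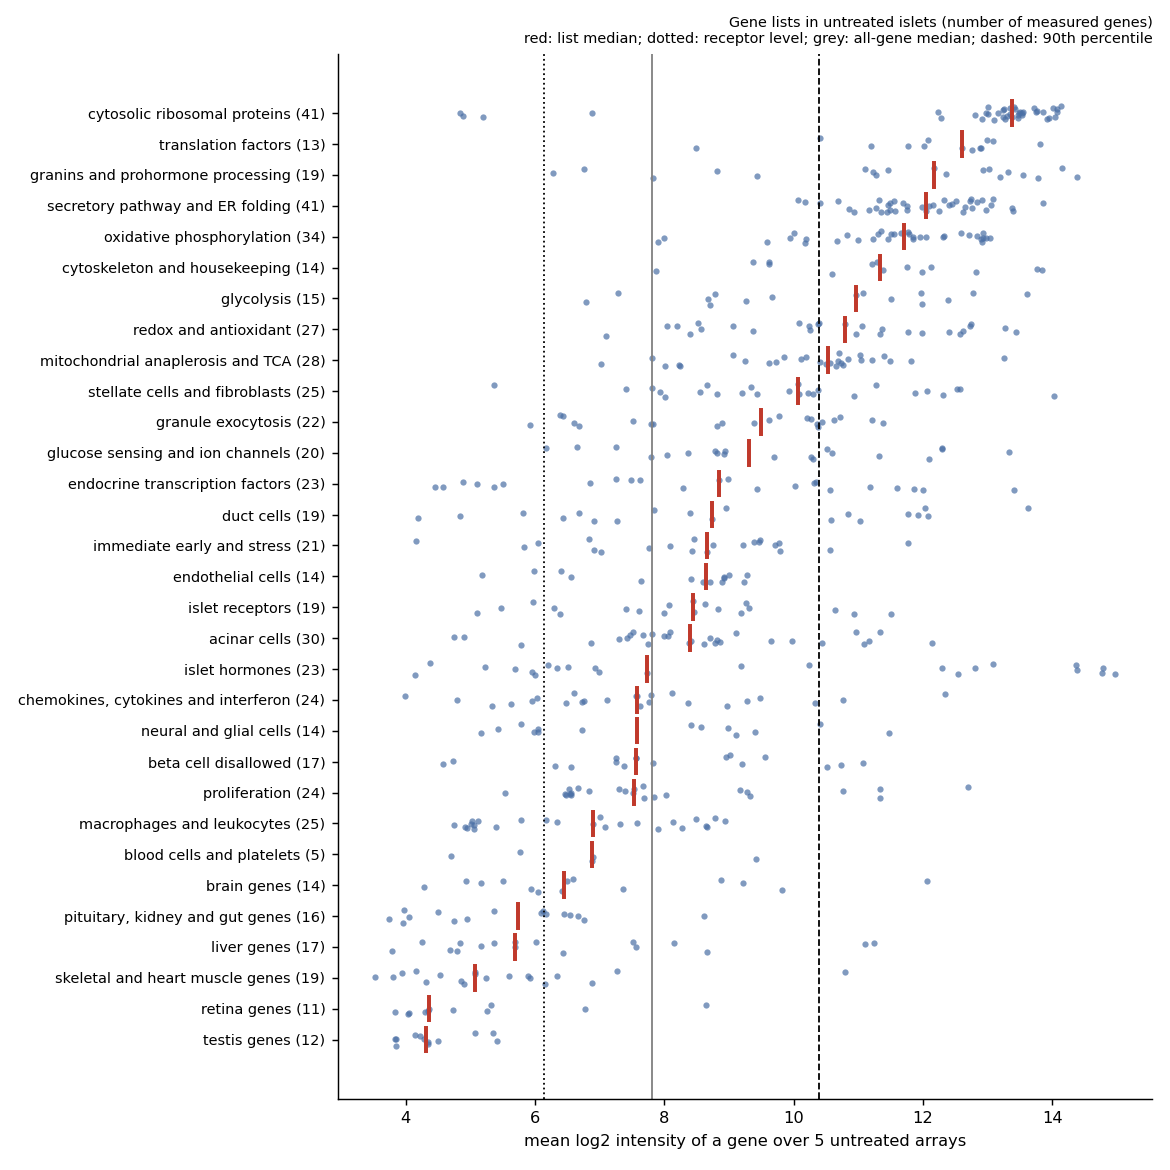
Mean log2 intensity over 5 untreated arrays (horizontal axis) of every measured gene of 31 lists, 1 point per gene, with the number of genes in brackets and the list median in red. Ribosomal, translation, granin and secretory lists lie highest, and testis, retina and muscle lists lie below the receptor level at their median.

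Other gene groups lay between these ends. The 27 redox and antioxidant genes had a median of 10.80, led by Txn1, thioredoxin, at 13.44 ± 0.09 and Sod1, cytosolic superoxide dismutase, at 13.27 ± 0.10. Mt2A, a metallothionein that binds zinc and copper, read 11.78, 13.49, 12.73, 12.93 and 12.72, lowest on array 1 and highest on array 2. Translation factors had a median of 12.60 over 13 genes, with Eef1a1, the elongation factor that delivers tRNA, at 13.81 ± 0.09. The 14 cytoskeleton and housekeeping genes had a median of 11.34, with Actg1, gamma actin, at 13.85 ± 0.16.

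Growth and signal genes were mostly of middling or low intensity. Of 24 proliferation genes, with a median of 7.52, 4 were in the top 10%. Ccnd2, a G1 cyclin of beta cells, read 13.01, 12.83, 12.94, 12.37 and 12.32, and Ccnd1, its relative, 11.46, 10.86, 10.69, 10.46 and 10.34, both lower on arrays 4 and 5 than on the other 3. The Ccnd1 values are from the brightest of its 3 probe sets, with an SD of 0.44. The others had means of 10.10 ± 0.13 and 9.58 ± 0.46. The part of the control differences of arrays 4 and 5 in these values was not tested. Mki67, a marker of cycling cells, read 7.05, 6.30, 6.01, 6.26 and 7.13, with arrays 1 and 5 high. The 21 immediate early and stress genes had a median of 8.66, with Jund, an AP-1 subunit, at 11.77 ± 0.12 by its brightest probe set (4.69 and 4.54 by its other two) and Egr1, a zinc finger factor induced by growth signals, at 9.77 ± 0.25.

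The 24 chemokine, cytokine and interferon genes had a median of 7.57, and 18 lay above the receptor level. Of the 24, 9 had an SD above 0.5, against 346 of the 10587 genes (3.27%) above the receptor level. Il1r1, the interleukin 1 receptor, was the brightest at 12.33 ± 0.19, although its 3 probe sets ran from 6.76 to 12.33. Il1b, its ligand, read 5.81, 7.16, 6.41, 6.50 and 6.55, lowest on array 1 and highest on array 2. Ccl2, a monocyte chemokine, read 10.09, 11.40, 10.52, 10.50 and 11.28, with arrays 2 and 5 high. Ifit3, an interferon-induced gene, was the dimmest of the list at 3.99 ± 0.19.

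Cells other than endocrine cells were visible, acinar cells most variably. The 30 measured acinar genes had a median of 8.40, with 27 above the receptor level and 6 in the top 10%. Their mean over the list was 8.69, 7.85, 8.62, 7.16 and 10.31 on arrays 1 to 5, so that array 5 lay 3.15 log2 units, or 8.85-fold, above array 4. Ctrb1, chymotrypsinogen B, read 12.48, 11.17, 12.77, 10.37 and 13.88. Prss1, trypsinogen, read 11.84, 10.04, 11.48, 9.92 and 13.40. On array 5 Ctrb1 ranked 18 of all genes and on array 4 it ranked 1507.

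The acinar genes did not all vary alike. Amy2a3, pancreatic amylase, had the largest SD of all genes above the receptor level at 1.78, reading 9.98, 7.37, 9.56, 7.24 and 11.39. Bhlha15, the factor MIST1 of acinar and other secretory cells, read 7.59 to 8.35 with array 1 highest, and Ptf1a, the acinar fate factor, had a mean of 4.74 ± 0.44, below the receptor level. Of 30 genes 26 had an SD above 0.5, against 346 of the 10587 genes (3.27%) above the receptor level. On array 5, where the acinar list was highest, Ins1 and Gcg had their highest values, while the list means of granins and processing (11.32), exocytosis (8.83), glucose sensing (9.48), islet receptors (8.13) and endocrine transcription factors (8.39) were at their lowest. These 5 list means differed by 0.0950 to 0.259 log2 units between their lowest and highest array. They did not mirror the acinar list over the other arrays. All but the receptor list were highest on array 1, where the acinar mean was 8.69, and the receptor list was highest on array 3. None was highest on array 4, where the acinar list was lowest. The lists of the tricarboxylic acid cycle (10.07) and the secretory pathway (11.87) were also lowest on array 5. Those of stellate cells and fibroblasts (10.34) and endothelial cells (8.34) were highest there. On arrays 4 and 5, which stood apart in the controls, the transcription factor list read 8.43 and 8.39, against 8.56 to 8.65 on the others. The parts of acinar tissue and of the control differences in these list means were not tested.

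Stroma, duct and vessel genes gave middling signals. The 25 stellate cell and fibroblast genes had a median of 10.06, led by Mgp, matrix Gla protein, at rank 14 with 14.02 ± 0.14. Col3a1 and Col1a2, fibrillar collagens, read 11.98 to 13.07 and 11.29 to 12.56, each lowest on array 4. The 19 duct cell genes had a median of 8.74; among them Clu, clusterin, had a mean of 13.63 ± 0.15, Epcam, an epithelial adhesion molecule also found on endocrine cells, 12.07 ± 0.15, and Krt8, a keratin of simple epithelia, 12.03 ± 0.31. Krt7 and Krt19, duct keratins, had means of 11.76 ± 0.17 and 7.84 ± 0.57. The 14 endothelial genes had a median of 8.65 and 0 were in the top 10%. Cd93 and Plvap, surface proteins of vessels, led with 9.27 ± 0.41 and 9.23 ± 0.28. The other probe set of Cd93 had a mean of 5.44, below the receptor level.

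Macrophage and leukocyte genes were dimmer, with a median of 6.89 over 25 genes and 15 above the receptor level. C1qa and C1qc, complement subunits made by resident macrophages, read 9.46, 7.53, 8.26, 8.50 and 9.47, and 9.11, 7.14, 7.82, 8.01 and 9.24. Lyz2, lysozyme, read 9.12, 7.25, 8.37, 8.13 and 9.54, so that the 3 genes had the same arrays, 1 and 5, at the top and array 2 at the bottom. Cd3e, a T cell receptor chain, had a mean of 4.91 ± 0.15, below the receptor level on every array. Pf4, a platelet chemokine, read 9.44, 8.81, 8.89, 9.30 and 10.61, highest on array 5, within a list of 5 blood cell and platelet genes with a median of 6.88. Neural and glial genes had a median of 7.57 over 14 genes, with Uchl1, a ubiquitin hydrolase of neurons and endocrine cells, at 11.47 ± 0.19.

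Lists of distant tissues lay toward the dim end, with medians below the receptor level for all but the brain list. Above that level lay 8 brain, 7 liver, 6 pituitary, kidney and gut, 5 muscle and 2 retina genes. Of the 12 testis genes 0 lay above the receptor level (median 4.31), and medians were 4.36 for 11 retina genes, 5.08 for 19 muscle genes, 5.73 for 16 pituitary, kidney and gut genes, 6.45 for 14 brain genes and 5.69 for 17 liver genes, with Alb, serum albumin, at 5.16 ± 0.11. The 10 dimmest genes with a name ran from 3.18 to 3.33 and included Tmem255a, Prl8a7 and Prl8a4 (placental prolactin relatives), Lpar4 (a lysophosphatidic acid receptor) and Khdrbs2 (an RNA-binding protein of neurons). Their SDs were 0.04 to 0.12, and a low value does not show that a transcript is absent. Nr4a1, a nuclear receptor gene named in the series title, was also dim in these untreated islets, at 5.98, 6.16, 6.17, 5.79 and 6.14, with a mean of 6.05 beside the receptor level of 6.14.

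Most genes varied little between the samples. Over the 10587 genes above the receptor level the median SD was 0.152, 2219 (21.0%) had an SD below 0.1, 346 (3.27%) above 0.5 and 53 above 1, of which 24 were acinar genes. The steadiest genes of the top 10% were Nono, a nuclear RNA-binding protein, at 11.74 ± 0.02, Cs, citrate synthase, at 10.69 ± 0.02 and Ndufa1 at 12.93 ± 0.02. The number of arrays limits the precision of these SDs.

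**Figure D4:**
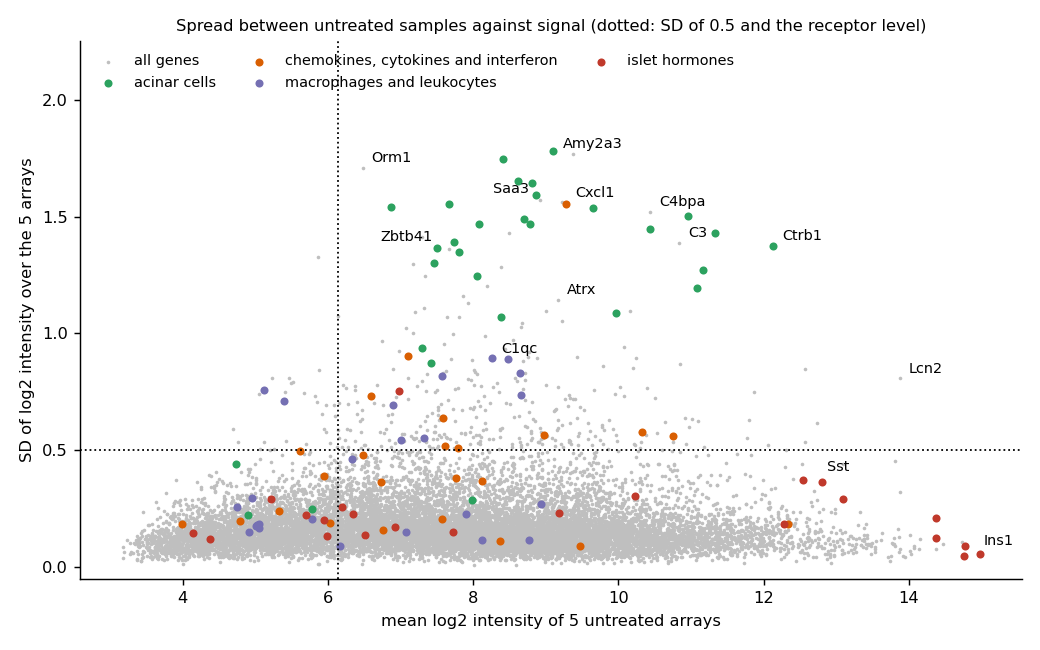
SD over 5 untreated arrays (vertical axis) against mean log2 intensity (horizontal axis) for 14218 genes, with 4 lists coloured and dotted lines at an SD of 0.5 and the receptor level. Acinar genes fill the top of the plot, and the brightest hormones lie at the bottom right.

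The variable genes moved in a few common orders of the arrays, which were picked after their values were seen, overlap and carry no test. In 45 of the 346 genes (13.0%, against 3.15% of all genes above the receptor level) array 5 was highest and array 4 lowest, and 22 of these were acinar genes. In 52 (15.0%, against 8.15%) array 2 was highest and array 1 lowest. Arrays 1 and 5 were above arrays 2, 3 and 4 in 92 (26.6%, against 9.13%), 13 of them acinar and 8 macrophage genes, and arrays 1, 2 and 5 were above 3 and 4 in 86 (24.9%, against 8.56%). In 107 (30.9%, against 9.21%) arrays 4 and 5 were both below arrays 1 to 3, and in 2 (0.578%, against 14.5%) both were above.

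Of the 52 genes with array 2 highest and array 1 lowest, 6 were on the chemokine, cytokine and interferon list and 0 on the macrophage list. On the chemokine list 9 of 24 genes had an SD above 0.5, against 3.27% of all genes above the receptor level. Of the genes above the receptor level with such an SD, 15.0% had this order. Only 8 of them were on the macrophage list, so the 0 rests on few genes. All 8 had arrays 1 and 5 above arrays 2, 3 and 4. The genes named next were among the 52. Saa3, a serum amyloid A, read 6.76, 11.06, 8.75, 9.56 and 8.44, a 19.6-fold range. C3, complement component 3, read 8.80, 12.62, 10.77, 11.40 and 10.58, and Cxcl1, a neutrophil chemokine, 6.97, 10.97, 9.45, 10.31 and 8.69. Lcn2, lipocalin 2, an iron-siderophore trap, read 12.66, 14.78, 13.88, 14.40 and 13.67, so it ranked 2 on array 2 and 150 on array 1. Sod2, the mitochondrial superoxide dismutase, followed at 11.43, 13.69, 12.36, 13.03 and 12.32. The mean of the 25 macrophage and leukocyte genes was lowest on array 2, at 6.35, and 6.49 to 7.08 on the others. Their part in the order of the 52 genes was not tested.

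The order with arrays 4 and 5 at the bottom held genes that span more of the genome: the median span of the 107 was 63.5 kb, against 23.4 kb for all genes above the receptor level. Atrx, a chromatin remodeller, read 10.20, 9.75, 10.04, 7.91 and 7.94, and Zbtb41, a zinc finger gene, 8.70, 8.41, 8.84, 6.35 and 6.03. On the same arrays the 3′, middle and 5′ control probe sets of beta-actin were all low, as was the DapX spike given above. On arrays 1 to 5 the middle set read 12.31, 12.36, 12.23, 11.08 and 11.32. The 3′ set read 13.41, 13.47, 13.38, 12.61 and 12.81, and the 5′ set 11.42, 11.48, 11.30, 10.47 and 10.64. The gap between the 3′ and 5′ sets was 1.98 to 2.17 log2 units. The 3′ set of Gapdh read 12.98, 12.92, 12.61, 12.67 and 12.69, with array 3 lowest. Of the 2 other arrays of the series with low DapX, the Nr4a1 replicate 4 array had Atrx at 7.91 and the Nr4a3 replicate 2 array had it at 9.75. The part of these control differences in the 107 genes was not tested.

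**Figure D5:**
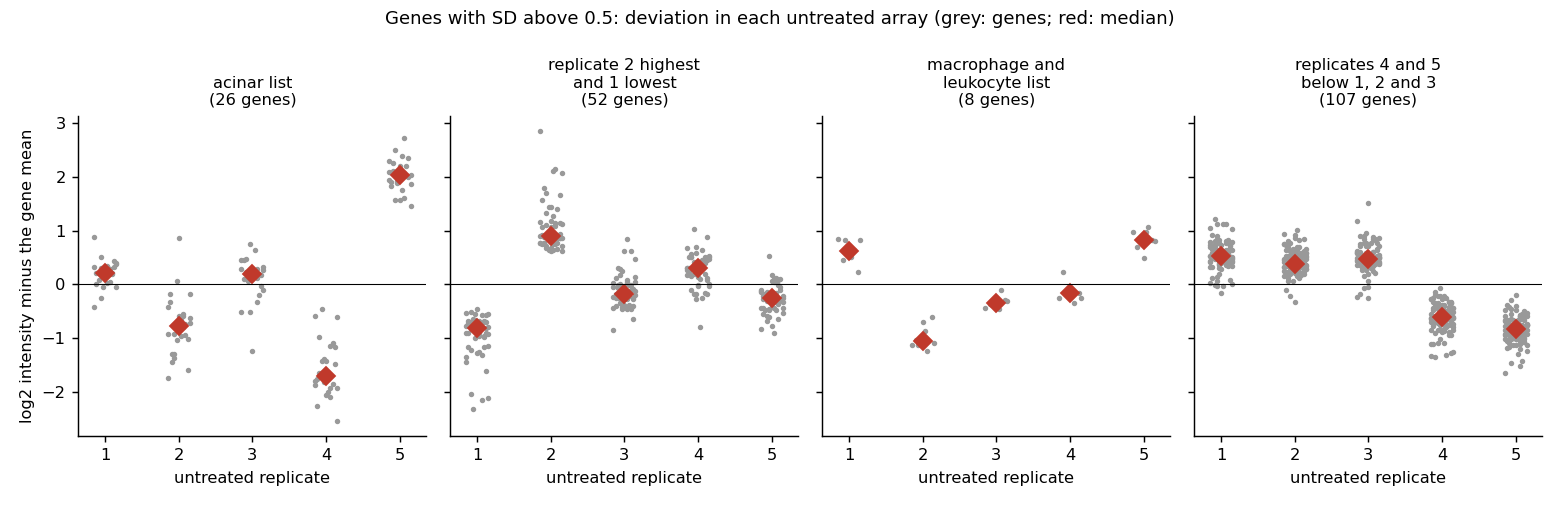
Log2 intensity minus the gene's mean (vertical axis) on each untreated array (horizontal axis) for 4 sets of genes with an SD above 0.5, with 1 grey point per gene and red diamonds at the medians. The median deviation of acinar genes is 2.02 on array 5 and -1.70 on array 4, and that of 52 genes chosen for array 2 being highest is 0.90 there.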

How the data were processed

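Islet RNA was hybridized to Affymetrix rat arrays, 1 per sample. The deposited probe set values are intensity on a linear scale, made by the authors with RMA (background correction, quantile normalization over arrays, probe summary) per the submitters' processing notes; no source used here names the RMA version. A log scale had been assumed in the plan. The values of the 5 untreated arrays were log2-transformed here with no further scaling, in Python 3.11.15 with pandas 2.3.3 and numpy 2.4.6. Of 31099 probe sets, 20832 name 1 gene, 436 several and 9831 none. These counts include 57 control probe sets, and the rank of Gapdh rests on 1 of them. The brightest of a gene's probe sets stood for it (4526 of 14218 genes had more than 1). Of the brightest 100 probe sets 58 name 1 gene; the others, and genes with no probe set of their own such as Ucn3 and Pcsk1, were not analysed here. Promoters came from RefSeq and were aligned with biopython 1.88.

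No group was compared and no test made. Named were, by rule, all hormones, the 30 brightest genes, the 4 brightest and the dimmest gene of each list, the 10 dimmest, and the most and least variable genes; 35 further genes were added after their values were seen. Members and lists (32, with 645 measured genes) were chosen with earlier results of these data known. Probe set choice, normalization and each array were varied.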

Additional observations from a re-analysis of the deposited data

Results flagged for a closer look

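For 248 genes and 32 list means (280 values in all), the array farthest from the others was compared with the range of the 5 arrays, and in 11 of them its gap to the nearest array was over 0.71 of the range. Chance gives about 1 in 20. Array 2 was the far one in 5 of them, arrays 4 and 5 in 2 each and arrays 1 and 3 in 1 each.

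Sst, the somatostatin gene, was lowest on array 2 at 12.16, where the other 4 arrays read 12.91 to 13.00. Krt8, a keratin, was highest on array 2 at 12.56 (others 11.79 to 11.96), as was Slc16a1, the lactate carrier, at 7.71 (others 7.06 to 7.22). Fga, a fibrinogen chain, was highest there at 6.22 (others 5.13 to 5.18), while Myh1, a muscle myosin gene, was lowest there at 10.74 (others 10.80 to 10.82). Slc2a2, the glucose transporter, was highest on array 1 at 13.74 (others 13.19 to 13.30), and Ndufa4 was lowest on array 3 at 12.80 (others 12.93 to 12.97).

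On array 4, Trim28, a transcriptional corepressor, was lowest at 10.63 (others 10.68 to 10.70) and Xist was lowest at 4.24 (others 4.50 to 4.59). On array 5, Itm2b, a membrane protein, was lowest at 13.61 (others 13.81 to 13.86), and the mean of the 5 blood cell and platelet genes was highest at 7.14 (others 6.51 to 6.68).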

How the results depend on the processing

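No paired analysis was possible because only 1 group is described and no test was made. The median of the hormone list moved from 7.72 to 9.18 when probe sets that can share sequence were left out. This setting removed the dim genes Tac1 and Gip, whose only probe sets were of that kind. The middle gene of the list thereby changed from Penk to Ghrl, whose own value of 9.18 was the same as before. Under the other settings tried (mean or dimmest probe set, renewed quantile normalization, median centring), no count moved by over 1.5 times and neither of the medians recomputed (acinar and hormone list) by over its SD between arrays. The brightest 100 genes kept 81 members with the mean over probe sets, 80 with the dimmest and 90 without shared probe sets. Leaving out each array in turn gave 10543 to 10605 genes above the receptor level, 97 to 100 of the brightest 100, 5 to 6 acinar and 40 to 43 endocrine genes in the top 10%, 303 to 404 genes with an SD above 0.5, an acinar median of 7.99 to 8.80 and a hormone median of 7.68 to 7.77. Arrays 1 to 3 alone, and 4 and 5 alone, splits chosen after the controls were seen, gave 310 and 355 genes with an SD above 0.5 and acinar medians of 8.22 and 8.58. With the dimmest probe set 58 of 248 named genes moved by more than 1 SD (Gnas to 8.18, Clu to 7.86, Gad1 to 6.66), so their ranks rest on the probe set. Signal over background limits the dim end, where no detection calls were used.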

Other observations

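Some bright signals came from genes on none of the lists. Gnas, the stimulatory G protein alpha subunit that carries incretin and glucagon signals to cyclic AMP, ranked 4 with a mean of 14.74 ± 0.11, although its 3 probe sets ran from 8.18 to 14.74. Lgals3, galectin 3, read 13.57, 14.34, 13.80, 14.08 and 13.63 and was highest on array 2. Msln, mesothelin, and Gc, the vitamin D binding protein known from alpha cells, had means of 13.39 ± 0.12 and 13.41 ± 0.08. These were chosen after their values were seen.

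A few genes of distant tissue lists were bright. Fgg and Fgb, fibrinogen chains of the liver list, had means of 11.24 ± 0.48 and 11.10 ± 0.63 (the other probe sets of Fgb had 5.36 and 3.93), while Fga, the third chain, read 5.18, 6.22, 5.13, 5.14 and 5.15 from its brightest probe set. All 3 were highest on array 2. Gad1, which makes the transmitter GABA and is known from beta cells as well as neurons, had a mean of 12.06 ± 0.25 by the brighter of its probe sets and 6.66 by the other. Myh1, a muscle myosin, had a mean of 10.80 ± 0.03 with its 5 probe sets between 9.00 and 10.80, while the muscle list had a median of 5.08.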
